A study of Mus musculus with 6 samples.

Results

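Interferon-stimulated genes and genes of MHC class I antigen presentation were described in PDVC57 cells, a mouse line of squamous cell carcinoma, after loss or gain of Sox2. The set was given as a list of symbols and not by any measured value: 25 interferon-stimulated genes and 12 genes of class I presentation, together 37 of the 55385 mouse genes in the count table. All 37 symbols were found in the table, and all 37 had enough counts to be tested. RNA came from 3 libraries of PDVC57 cells with the genotype Sox2 KO (knockout) and 3 libraries of PDVC57 cells with Sox2 overexpression. The series' design text calls the cells Sox2 low or Sox2 high and says that they were recovered from tumours grown as grafts. How Sox2 was removed or supplied, whether a line is 1 clone, the host mouse, its age and whether animals were pooled are not given in the sources used here. The 2 genotypes were compared with each other, and no library of unmodified PDVC57 cells was analysed here. Nothing in the labels says that replicates came from separate animals or cultures, so p-values measure the spread between these libraries, which may be technical.

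Cells that detect foreign nucleic acid or an infection release interferons, which bind receptors on the same and on neighbouring cells. Type I and type III interferons activate a complex with Stat2 and Irf9 that binds the interferon-stimulated response element, and interferon gamma acts through the gamma-activated site. The genes so induced include antiviral effectors, interferon-inducible GTPases and the machinery that loads peptides on MHC class I molecules, by which T cells see tumour cells.

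Promoter sequences were searched for the elements named above. RefSeq promoter windows (GRCm38.p6, 250 bases before to 50 bases after the start) were matched for 29 of the 37 members. The response element core, spelled GAAA, any 2 bases and GAAA and searched on both strands, was found in 11 of 19 interferon-stimulated members (Ifih1, Stat2, Isg15, Ifit1, Ifit3, Oas1a, Rsad2, Bst2, Gbp2, Gbp3 and Irgm1). Of the 10 class I members with a window, 3 held it (H2-T23, B2m and Erap1). This core was in a window of 3.99% of the 27025 genes with one. The gamma-activated site core TTCNNNGAA, also on both strands, was in 4 of 19 and 1 of 10 members, against 9.55% of all genes. A match is a description of the letters and not a site of binding. The 200 bases before the start are shown 5′ to 3′ on the gene's strand for 5 members whose values follow below, with each response element core in capitals in either orientation, and cores that overlap run together.
Isg15, chr4:156200819-156201018, minus strand: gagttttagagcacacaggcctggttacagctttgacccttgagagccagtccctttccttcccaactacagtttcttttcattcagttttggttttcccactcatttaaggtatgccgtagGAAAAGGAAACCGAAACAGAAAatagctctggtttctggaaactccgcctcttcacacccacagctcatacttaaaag
Oas1a, chr5:120907526-120907725, minus strand: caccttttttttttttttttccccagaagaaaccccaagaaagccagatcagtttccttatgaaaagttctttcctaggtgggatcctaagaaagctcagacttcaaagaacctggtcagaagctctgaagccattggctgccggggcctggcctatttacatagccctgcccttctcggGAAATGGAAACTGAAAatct
Ifit1, chr19:34640689-34640888, plus strand: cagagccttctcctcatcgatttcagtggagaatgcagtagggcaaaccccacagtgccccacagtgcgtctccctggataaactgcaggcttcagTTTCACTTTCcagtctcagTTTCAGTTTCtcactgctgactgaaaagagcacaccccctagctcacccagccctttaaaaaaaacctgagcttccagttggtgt
Ifit3, chr19:34583329-34583528, plus strand: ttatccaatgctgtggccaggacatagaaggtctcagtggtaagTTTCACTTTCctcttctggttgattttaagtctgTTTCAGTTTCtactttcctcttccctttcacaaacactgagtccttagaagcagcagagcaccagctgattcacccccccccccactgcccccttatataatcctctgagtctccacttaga
B2m, chr2:122147487-122147686, plus strand: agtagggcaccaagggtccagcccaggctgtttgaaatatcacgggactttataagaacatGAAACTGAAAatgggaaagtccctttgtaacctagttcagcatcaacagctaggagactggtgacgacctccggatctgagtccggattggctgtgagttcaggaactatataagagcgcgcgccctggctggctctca
In Isg15 and Oas1a, which were higher with overexpression, the nearest core begins 66 and 14 bases before the start. In Ifit1 and Ifit3, which were high in 1 overexpression library and low in the other 2, it begins 85 and 122 bases before the start. B2m, the light chain of class I molecules, has its core 139 bases before the start. All 5 members shown hold a core. Irf7, Irf9 and Psmb9, which were also higher with overexpression, had no response element core in their windows, and no window was matched for Usp18. A link between the core and these changes was not tested.

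Library totals lay between 31247976 and 38543221 counts, and 25107 to 28684 genes had at least 1 count. Levels are given as CPM, the depth-scaled counts of edgeR with TMM-normalized library sizes, and 3 counts are 0.0758 to 0.101 CPM. Sox2, the targeted gene, was at 1.43, 1.12 and 0.684 CPM in the knockout libraries and at 78.2, 128 and 103 CPM in the overexpression libraries, so its level follows the labels. Overexpression replicate 1 stood apart from the other overexpression libraries for the interferon-stimulated members, and results are given with and without it. Fold changes are overexpression over knockout, from edgeR's quasi-likelihood test with Benjamini-Hochberg adjustment over 18504 tested genes and a threshold of 0.05. Keratinocyte markers had a summed level of 1408 to 3331 CPM in the knockout libraries and 4513 to 7210 CPM in the overexpression libraries, and 6 of 8 rose. Fibroblast markers summed to 60524 to 87016 CPM against 2365 to 3584 CPM, and 8 of 8 fell. Markers of all white blood cells summed to 32.2 to 249.2 CPM against 2.10 to 4.19 CPM (4 of 4 fell), and endothelial markers to 28.01 to 97.5 CPM against 11.8 to 19.0 CPM (4 of 5 tested fell; Cdh5, Emcn and Cldn5 had at most 3 counts in every overexpression library). Tek made up most of the endothelial sum with overexpression, and its groups overlapped (9.66 to 34.4 CPM with knockout, 9.32 to 16.9 CPM with overexpression). In bulk RNA, fewer cells of a type and less RNA per cell cannot be told apart, and the part of these markers in the member results was not tested.

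In the overexpression libraries 6 of the 37 members were higher than in the knockout libraries and 0 lower (16.2% called, beside 31.6% of all tested genes, of which 13.6% were higher and 18.0% lower). They were Irf7, Irf9, Usp18, Isg15 and Oas1a among the interferon-stimulated genes and Psmb9 among the class I genes. In this test 10 members had an unadjusted p under 0.05. The median log2 fold change was 0.47 over the interferon-stimulated members and 0.29 over the class I members, beside -0.02 over all tested genes. The libraries of the 2 groups did not overlap for 8 members (21.6%), the 6 above with Oasl2 and H2-D1, where 50.9% of all genes did not overlap and 24.4% did so with overexpression higher. The share of members called in either direction was below that of the table as a whole, and the share that was higher was close to it. These directions depend on the scaling: when libraries were scaled to 25 epithelial genes, the median of all tested genes went from -0.02 to -1.21, the sign of 25 of the 37 members turned, and all 6 calls ended. The scaling genes include all 8 keratinocyte markers, of which 6 rose. A member that rose less than the scaling genes therefore had to turn. Under that scaling 0 members were higher, and 8 of the 25 interferon-stimulated and 8 of the 12 class I members were lower. Of all 18504 tested genes, 336 were then higher and 12964 lower.

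**Figure D1:**
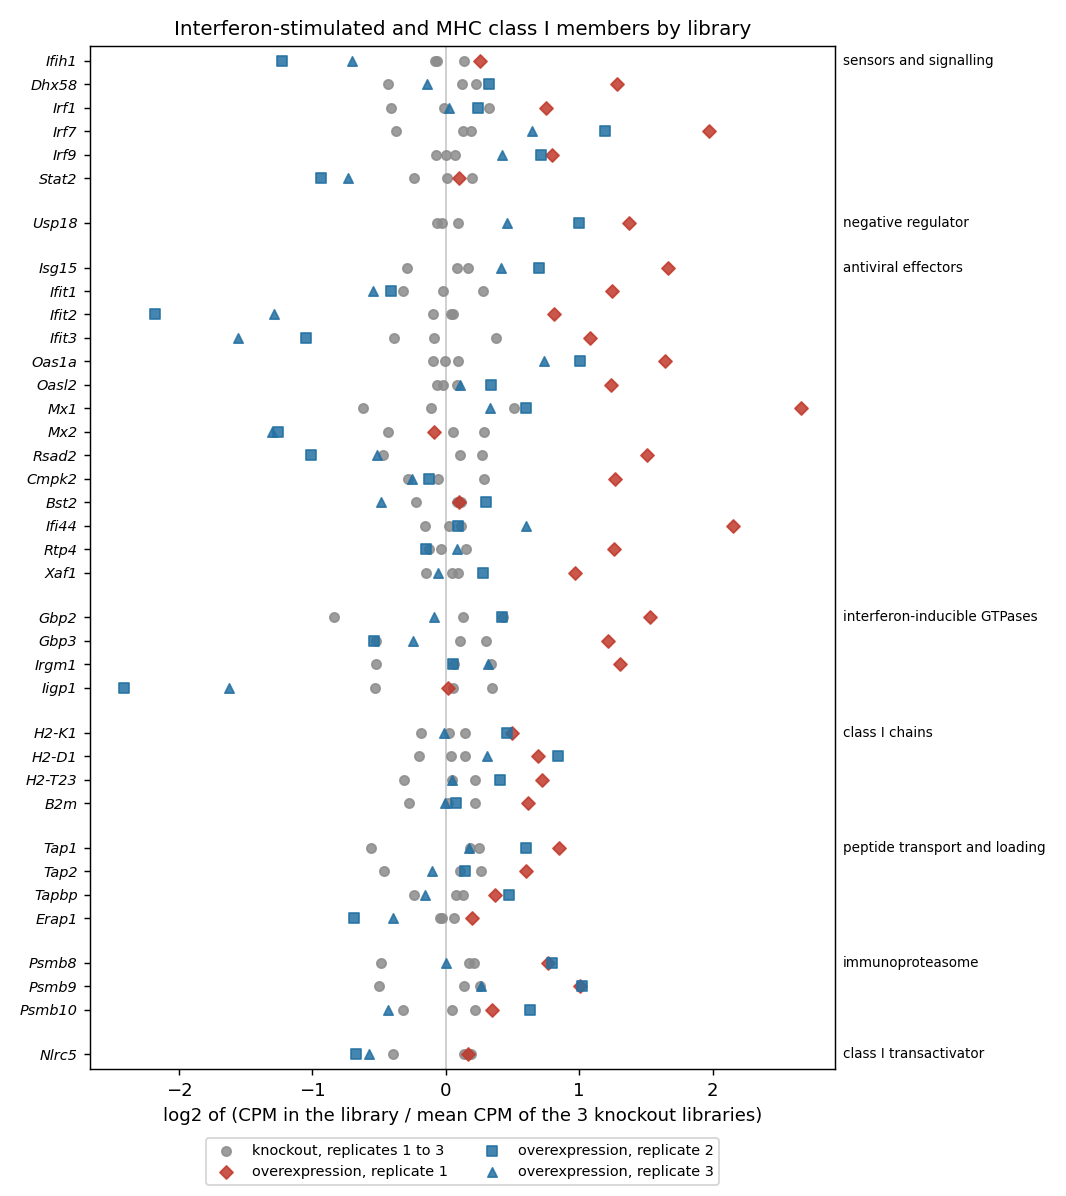
Level of each member in each library as log2 of its CPM over the mean CPM of the 3 knockout libraries (x axis), with members by role (y axis), knockout libraries as grey circles and overexpression replicates 1, 2 and 3 as red diamonds, blue squares and blue triangles. Overexpression replicate 1 is the highest of the 6 libraries for 21 of 25 interferon-stimulated members and 6 of 12 class I members, beside 13.7% of all tested genes. Overexpression replicate 2 is the highest for 5 of 12 class I members, beside 29.2% of all tested genes.

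Members that sense and signal were divided. Irf7, the transcription factor that amplifies type I interferon production, was at 41.2, 58.4 and 61.0 CPM in the knockout libraries and at 210.5, 122 and 83.6 CPM in the overexpression libraries. All 3 overexpression libraries lay above the knockout libraries, with replicate 1 highest. The mean rose from 53.5 ± 10.7 to 139 ± 65.0 CPM (SD, n = 3 each), and its fitted log2 change was 1.37 ± 0.32 (SE, edgeR, adjusted p = 0.0117). Irf9, the DNA-binding part of the complex with Stat2, was at 70.8, 74.4 and 67.3 CPM against 123, 116 and 95.0 CPM, and its overexpression libraries were closer together. The log2 fold change was 0.65 ± 0.15 (SE, edgeR, adjusted p = 0.0105). Irf7 lies on chromosome 7 (141262706 to 141266481, minus strand, GRCm38) and shares 45 exon bases with Phrf1 on the other strand. Irf9 lies on chromosome 14 (55603571 to 55610030, plus strand) and shares 123 exon bases with Rnf31 on the same strand.

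Irf1, a factor induced strongly by interferon gamma, had the highest average level of this role, 620.2, 783 and 471 CPM against 1054, 739 and 636 CPM. Its groups overlapped and it did not pass the test, with a log2 fold change of 0.37 ± 0.25 (SE, edgeR, adjusted p = 0.294). Stat2, the partner of Irf9, was at 107, 127 and 144 CPM against 135, 65.8 and 75.8 CPM. Ifih1, the cytoplasmic sensor of long double-stranded RNA, was at 25.8, 30.0 and 26.1 CPM against 32.5, 11.7 and 16.7 CPM. For both genes overexpression replicates 2 and 3 lay below every knockout library while replicate 1 did not. With all 6 libraries their log2 fold changes of -0.45 and -0.43 did not pass (edgeR, adjusted p = 0.235 and 0.361). Dhx58, a regulator of RNA sensing, had 6.0 to 9.47 CPM in knockout and 7.33 to 19.7 CPM in overexpression libraries and did not pass (edgeR, adjusted p = 0.238).

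Usp18, which removes Isg15 from proteins and blocks signalling at the type I receptor, was at 32.2, 28.9 and 29.8 CPM in the knockout and 78.6, 60.5 and 41.7 CPM in the overexpression libraries. The groups did not overlap, and the knockout libraries lay close together. The mean rose from 30.3 ± 1.73 to 60.3 ± 18.4 CPM (SD, n = 3 each), and its fitted log2 change was 0.99 ± 0.22 (SE, edgeR, adjusted p = 0.00971). The gene is on chromosome 6 (121245906 to 121270917, plus strand).

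Among 14 antiviral effectors, 2 passed the test (14.3%, both higher, beside 31.6% of all tested genes called and 13.6% higher). Oas1a, a synthase of the oligoadenylates that activate RNase L, was at 17.7, 19.0 and 16.6 CPM against 55.4, 35.7 and 29.6 CPM. It rose from 17.7 ± 1.16 to 40.2 ± 13.5 CPM (SD, n = 3 each), and its fitted log2 change was 1.18 ± 0.24 (SE, edgeR, adjusted p = 0.00534). Oas1a, on chromosome 5 (120896256 to 120907521, minus strand), belongs to a family of close copies whose reads may be split between genes, so its level is uncertain. Isg15, an interferon-induced ubiquitin-like protein that becomes attached to other proteins, was at 12.9, 16.6 and 17.7 CPM against 49.8, 25.5 and 20.9 CPM. Its groups did not overlap, but replicate 1 stood 2.14-fold above the mean of the other overexpression libraries. The log2 fold change was 1.03 ± 0.32 (SE, edgeR, adjusted p = 0.0374). The call for Isg15 (chromosome 4, 156199424 to 156200818, minus strand) rests on every library but overexpression replicate 3. Leaving out knockout replicates 1, 2 and 3 in turn gave adjusted p-values of 0.1005, 0.0885 and 0.0584. Leaving out overexpression replicates 1 and 2 gave 0.0750 and 0.0508, and the log2 fold change without the first of these was 0.59. Upper-quartile scaling also ended the call (0.0525).

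Oasl2, a relative of the oligoadenylate synthases, had the highest average CPM of the effectors, 164, 148 and 152 CPM against 364, 196 and 166 CPM. Per kilobase of exon it was below Bst2, with means of 24.2 and 37.96 CPM for Oasl2 and 112.9 and 113.5 CPM for Bst2. The groups did not overlap, yet its log2 fold change of 0.65 ± 0.28 (SE) did not pass (edgeR, adjusted p = 0.109). It passed without overexpression replicate 3 (adjusted p = 0.0453, and 0.0237 to 0.299 over all alternatives). Mx1, an antiviral GTPase, had a log2 fold change of 1.599 ± 0.62 (SE, edgeR, adjusted p = 0.0823). Its values were 2.63, 1.85 and 4.05 CPM against 18.04, 4.32 and 3.59 CPM, so replicate 1 stood far above all other libraries and replicate 2 was just above the highest knockout library. Without replicate 1 its log2 fold change was 0.49, and under the epithelial scaling 0.41. Ifi44, an effector whose biochemical role is less settled, was at 12.4, 14.1 and 14.97 CPM against 61.7, 14.8 and 21.0 CPM (edgeR, adjusted p = 0.0764). Mx1 passed without overexpression replicate 3 (adjusted p = 0.0406), and Ifi44 without overexpression replicate 2 (adjusted p = 0.0320); over all alternatives their adjusted p ranged from 0.00263 to 0.514 and from 0.00114 to 0.863.

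The Ifit genes, whose proteins bind viral RNA, split within the overexpression group. Ifit2 was at 18.3, 18.1 and 16.5 CPM in the knockout libraries and at 30.99, 3.88 and 7.20 CPM with overexpression. Ifit3, which has a close copy in Ifit3b and is uncertain for that reason, was at 18.3, 22.6 and 30.99 CPM against 50.7, 11.6 and 8.13 CPM. Ifit1 was at 20.6, 25.3 and 31.3 CPM against 61.0, 19.3 and 17.6 CPM. In each of the 3 genes overexpression replicate 1 was the highest of all 6 libraries and the other 2 overexpression libraries were the lowest. None of them passed the test with all libraries, at log2 fold changes of -0.33, -0.03 and 0.34 (edgeR, adjusted p = 0.717, 0.976 and 0.589).

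The other effectors did not pass the test. Rsad2, the antiviral enzyme viperin, had 6.44 to 10.8 CPM in the knockout libraries and 25.4, 4.43 and 6.24 CPM with overexpression. Cmpk2, a mitochondrial nucleotide kinase next to it in the genome, had 20.2 CPM in overexpression replicate 1 and 6.90 to 10.2 CPM in the 5 others. Mx2 is annotated as a polymorphic pseudogene and was at 7.05, 11.7 and 9.94 CPM against 8.99, 3.99 and 3.86 CPM. Rtp4, a receptor-transporting protein, was at 63.1 CPM in overexpression replicate 1 and at 23.7 to 29.2 CPM elsewhere, and Xaf1, which binds an inhibitor of apoptosis, at 67.7 CPM and 31.1 to 41.8 CPM. Bst2, the tether that holds virus at the cell surface, had 87.4 to 110.2 CPM in the knockout libraries and 72.8 to 125 CPM with overexpression, a log2 fold change of 0.01.

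Interferon-inducible GTPases, which attack the membranes around intracellular pathogens, gave 0 calls of 4, beside 31.6% of all tested genes. Gbp2 had the highest average level of the role, 506, 622 and 258 CPM against 1336, 618 and 435 CPM, and its groups overlapped. The log2 fold change was 0.79 ± 0.44 (SE, edgeR, adjusted p = 0.209). Gbp3, which like Gbp2 has close relatives that may share reads, had 103 to 183 CPM with knockout and 346, 102 and 125 CPM with overexpression. Irgm1 had 136 to 247 CPM against 482, 203 and 243 CPM. Iigp1 differed from these, since its knockout libraries stood at 255, 312 and 169.7 CPM and overexpression replicate 1, at 248 CPM, lay among them. Overexpression replicates 2 and 3 had 46.1 and 79.4 CPM of Iigp1.

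B2m, H2-D1 and H2-K1 had the highest levels of all members per kilobase of exon. On that scale B2m had a mean of 1738 CPM with knockout and 2074 CPM with overexpression, H2-D1 1197 and 1856 CPM, and H2-K1 791 and 993 CPM, beside 184 and 317 CPM for Gbp2, the next highest, and 0.752 and 2.29 CPM for Mx1. H2-D1, a classical heavy chain that presents peptides to CD8 T cells, was at 3167, 3411 and 2685 CPM against 4997, 5534 and 3832 CPM, so the groups did not overlap. Its log2 fold change was 0.63 ± 0.21 (SE), just outside the threshold (edgeR, adjusted p = 0.0520). It passed with DESeq2 (adjusted p = 0.00792) and without overexpression replicate 3 (adjusted p = 0.0394), and over all alternatives adjusted p lay between 0.00792 and 0.170. H2-K1 was at 2362, 2565 and 2043 CPM against 3269, 3185 and 2302 CPM (log2 fold change 0.33, edgeR, adjusted p = 0.260). H2-T23, the chain that encodes Qa-1, had 331 to 478 CPM against 425 to 678 CPM, and B2m 1514, 1735 and 1235 CPM against 2290, 1573 and 1489 CPM (edgeR, adjusted p = 0.184 and 0.427). The heavy chains belong to a family of near-identical genes, so their reads may be divided in more than one way. Together the 4 chains took 0.770%, 0.784% and 0.642% of counts in the knockout libraries and 1.18%, 0.997% and 0.827% in the overexpression libraries. These shares do not overlap, although replicate 3 was the lowest library in each group. Among all tested genes, 24.4% were likewise higher with overexpression without overlap. Of the 4 chains only H2-D1 did not overlap by itself, and 0 passed the test.

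Genes of peptide transport and loading gave 0 calls of 4, beside 31.6% of all tested genes. Tapbp, the tapasin that bridges the transporter and the class I molecule, had the highest average level, 615, 639 and 495 CPM against 753, 810.2 and 524 CPM. The log2 fold change was 0.26 ± 0.21 (SE, edgeR, adjusted p = 0.383). Tap1 and Tap2, the subunits of the peptide transporter, had log2 fold changes of 0.57 and 0.24 (edgeR, adjusted p = 0.131 and 0.474). Tap1 ranged from 277 to 487 CPM with knockout and from 462 to 736 CPM with overexpression. Erap1, which trims peptides in the endoplasmic reticulum, was at 85.8, 80.6 and 79.8 CPM against 94.1, 50.8 and 62.4 CPM, and its exons overlap Cast by 834 bases.

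The immunoproteasome subunits replace constitutive subunits and change which peptides are cut. Psmb9 was at 98.6, 107 and 63.4 CPM against 180.2, 182 and 108 CPM, where the lowest overexpression library was just above the highest knockout library. It rose from 89.8 ± 23.2 to 157 ± 42.2 CPM (SD, n = 3 each), and its fitted log2 change was 0.80 ± 0.26 (SE, edgeR, adjusted p = 0.0447). Psmb9 lies on chromosome 17 (34181987 to 34187764, minus strand) and shares 212 exon bases with Tap1 on the other strand. Its call ended when knockout replicates 1, 2 and 3 were dropped in turn (adjusted p = 0.0710, 0.0598 and 0.122). It also ended when overexpression replicates 1 and 2 were (adjusted p = 0.0994 and 0.122), and with upper-quartile scaling (0.0555). Psmb8, the subunit with the highest average level, also per kilobase of exon, was at 313.5, 306 and 194 CPM against 462, 471 and 272 CPM and did not pass, with a log2 fold change of 0.57 ± 0.27 (SE, edgeR, adjusted p = 0.140). It passed without overexpression replicate 3 (adjusted p = 0.0495, and 0.0355 to 0.345 over all alternatives). Psmb10 was at 139, 157 and 108 CPM against 171, 209 and 99.9 CPM (edgeR, adjusted p = 0.515).

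All 3 constitutive counterparts, Psmb5, Psmb6 and Psmb7, also rose. Psmb5 was at 67.5, 67.8 and 65.6 CPM against 102, 167 and 108 CPM, with a log2 fold change of 0.91 ± 0.20 (SE, edgeR, adjusted p = 0.00904). Psmb6 had a log2 fold change of 0.83 (edgeR, adjusted p = 0.0199; lost without knockout replicate 2 or 3, at 0.0583 and 0.0658) and Psmb7 one of 0.66 (edgeR, adjusted p = 0.0316; lost without knockout replicate 1, 2 or 3, at 0.0645 to 0.102). Under the epithelial scaling all 3 turned to -0.29, -0.35 and -0.51. The ratio of Psmb8 to Psmb5 per length was 1.23, 1.20 and 0.785 in the knockout libraries and 1.20, 0.750 and 0.671 in the overexpression libraries. Psmb9 to Psmb6 was 0.535, 0.587 and 0.399 against 0.727, 0.431 and 0.410, and Psmb10 to Psmb7 was 2.12, 2.43 and 1.92 against 2.03, 1.64 and 1.18. Groups overlapped in all 3 pairs, and exact two-sided permutation tests gave p = 0.2, 1 and 0.2 (0.3, 1 and 0.3 adjusted over the 3 pairs), where 0.1 is the smallest p that 3 against 3 libraries allow. These ratios do not depend on how the libraries are scaled.

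Nlrc5, the transactivator of class I genes, did not pass the test. It was at 209, 201 and 139 CPM against 205, 115 and 123 CPM, with a log2 fold change of -0.31 ± 0.26 (SE, edgeR, adjusted p = 0.386).

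Overexpression replicate 1 stood apart from the other 2 overexpression libraries for the interferon-stimulated members. Their log2 CPM in this library minus the mean log2 CPM of replicates 2 and 3 had a median of 1.18 (0.19 to 2.54). Of these members 25 of 25 were above 0, beside 8345 of all 18504 tested genes. A difference above 1 was seen for 18 of 25 members and for 4.19% of all tested genes, whose median was -0.053. The members with the largest gaps were Ifit2, at 5.59-fold the mean of the other overexpression libraries, Ifit3 (5.14-fold), Rsad2 (4.76-fold), Mx1 (4.56-fold) and Iigp1 (3.95-fold). Bst2 (1.10-fold) and Irf9 (1.16-fold) had the smallest. Summed over the 25 members, the level was 5051 CPM in this library, 2613 and 2264 CPM in the other overexpression libraries, and 2465, 2939 and 1957 CPM in the knockout libraries.

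The class I members varied less and in another pattern. Overexpression replicate 1 had a median deviation of 0.41, replicate 2 one of 0.15 and replicate 3 one of -0.50. In the knockout group, replicate 3 had a median deviation of -0.45 and was the lowest of all 6 libraries for 9 of 12 class I members, against 22.1% of all tested genes. Their summed levels were 9580, 10376 and 7777 CPM in the knockout libraries and 14098, 13487 and 9861 CPM in the overexpression libraries. Knockout replicate 3 also had the highest sum of T and NK cell markers, 235 CPM, where the other knockout libraries had 15.5 and 32.6 CPM; the part of this in the lower class I level was not tested.

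**Figure D2:**
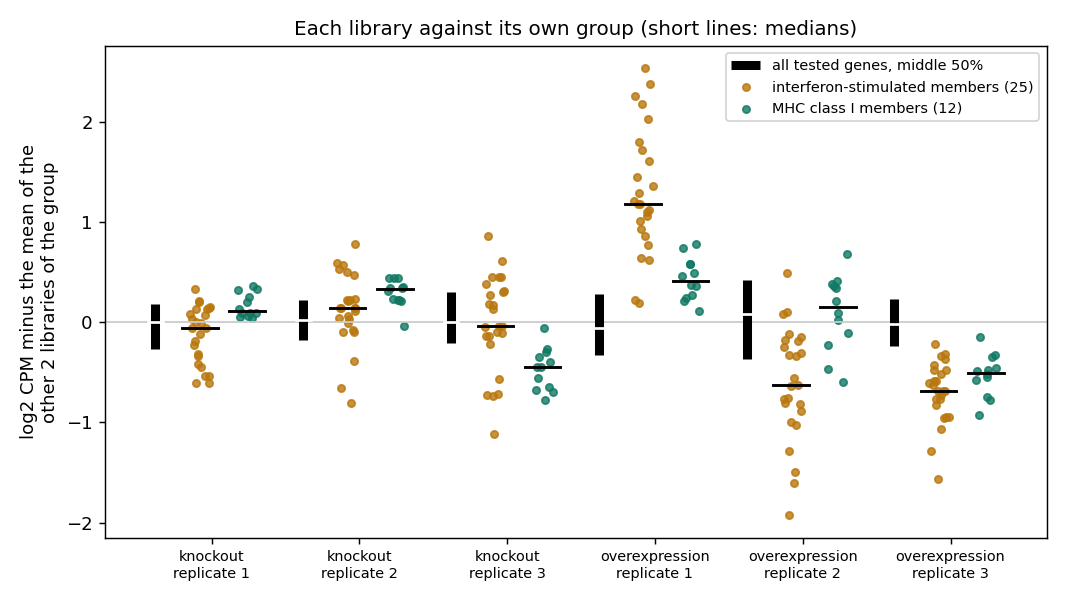
Log2 CPM of each member in 1 library minus the mean of the other 2 libraries of its group (y axis) for the 6 libraries (x axis), with interferon-stimulated members in ochre, class I members in green, medians as short lines and the middle 50% of all tested genes as black bars with a white line at the median. The interferon-stimulated members of overexpression replicate 1 have a median of 1.18, and those of overexpression replicates 2 and 3 have medians of -0.62 and -0.68.

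Markers of immune cells did not share a pattern in overexpression replicate 1. T and NK cell markers summed to 1.52 CPM in it, 0.844 and 0.530 CPM in replicates 2 and 3 and 15.5 to 235 CPM in the knockout libraries (6 of 7 tested fell), and Cd3e, Nkg7, Ncr1, Prf1 and Gzmb had at most 3 counts in every overexpression library. Macrophage markers had their highest sum of all 6 libraries in it, 27.9 CPM. The sum was 23.2 and 13.6 CPM in the other overexpression libraries and 15.3 to 25.2 CPM with knockout (2 of 6 tested fell). Csf1r and Cd68 were also highest in it, at 16.1 and 11.2 CPM, and made up most of the sum. Adgre1, C1qa, C1qc, Mrc1 and Lyz2 were instead lowest in it of all 6 libraries. In it 4 of the 8 macrophage markers had at most 3 counts, and Adgre1 had at most 3 counts in every overexpression library. Neutrophil markers summed to 5.97 CPM in it, 2.68 to 9.93 CPM over the overexpression libraries and 4.65 to 8.73 CPM with knockout (1 of 3 tested fell), with S100a8, S100a9 and Mpo at 3 counts or fewer in every overexpression library. Dendritic cell markers summed to 12.3 to 18.3 CPM over the overexpression libraries and 14.4 to 59.3 CPM with knockout (1 rose and 1 fell of 4 tested). This sum joins opposite moves. Flt3 was at 8.59 to 14.0 CPM with overexpression and 1.49 to 5.28 CPM with knockout, and Itgax at most at 0.126 CPM and at 7.84 to 40.3 CPM. The part of these cells in the interferon-stimulated levels of this library was not tested.

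Without overexpression replicate 1, 10 members passed the test (27.0%, beside 28.5% of the genes then tested, 13.0% higher and 15.5% lower). Irf7, Irf9, Usp18 and Oas1a were still higher, with log2 fold changes of 0.97, 0.60, 0.78 and 0.90 (edgeR, adjusted p = 0.0173, 0.0296, 0.0219 and 0.00789). These 4 kept their call in each of the 6 fits that left out 1 library, and over all alternatives their adjusted p lay between 6.43e-06 and 0.635, 0.00127 and 0.117, 0.000162 and 0.642, and 2.73e-05 and 0.936. The upper end of each of these 4 ranges is the epithelial scaling. Then 6 members were lower that had not passed with all libraries: Ifih1, Stat2, Ifit2, Ifit3, Mx2 and Iigp1. Their log2 fold changes were -0.92, -0.81, -1.64, -1.26, -1.26 and -1.95 (edgeR, adjusted p = 0.0154, 0.0141, 0.00452, 0.0129, 0.0173 and 0.00344). Ranges of their adjusted p over the alternatives reached up to 0.760, 0.535, 0.9996, 0.999, 0.362 and 0.433. The share of members that was lower, 16.2%, was close to the 15.5% of the genes then tested. This fit was singled out because the interferon-stimulated members were high in overexpression replicate 1. Leaving that library out lowers their overexpression mean, so these 6 calls are not independent evidence that the members were lower. The median over the interferon-stimulated members went from 0.47 to 0.13 and that over the class I members from 0.29 to 0.24. Of the class I members 0 passed in this fit, with 4 at an unadjusted p under 0.05. The 6 members lower in this fit were also lower under the epithelial scaling with all libraries (edgeR, adjusted p = 0.00138, 0.000534, 0.0198, 0.0422, 0.00114 and 0.000550). That scaling put 12964 of 18504 tested genes lower, so it is no separate evidence for these 6. The count of lower members, 0 with all 6 libraries under TMM, thus changes both with the libraries used and with the scaling.

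**Figure D3:**
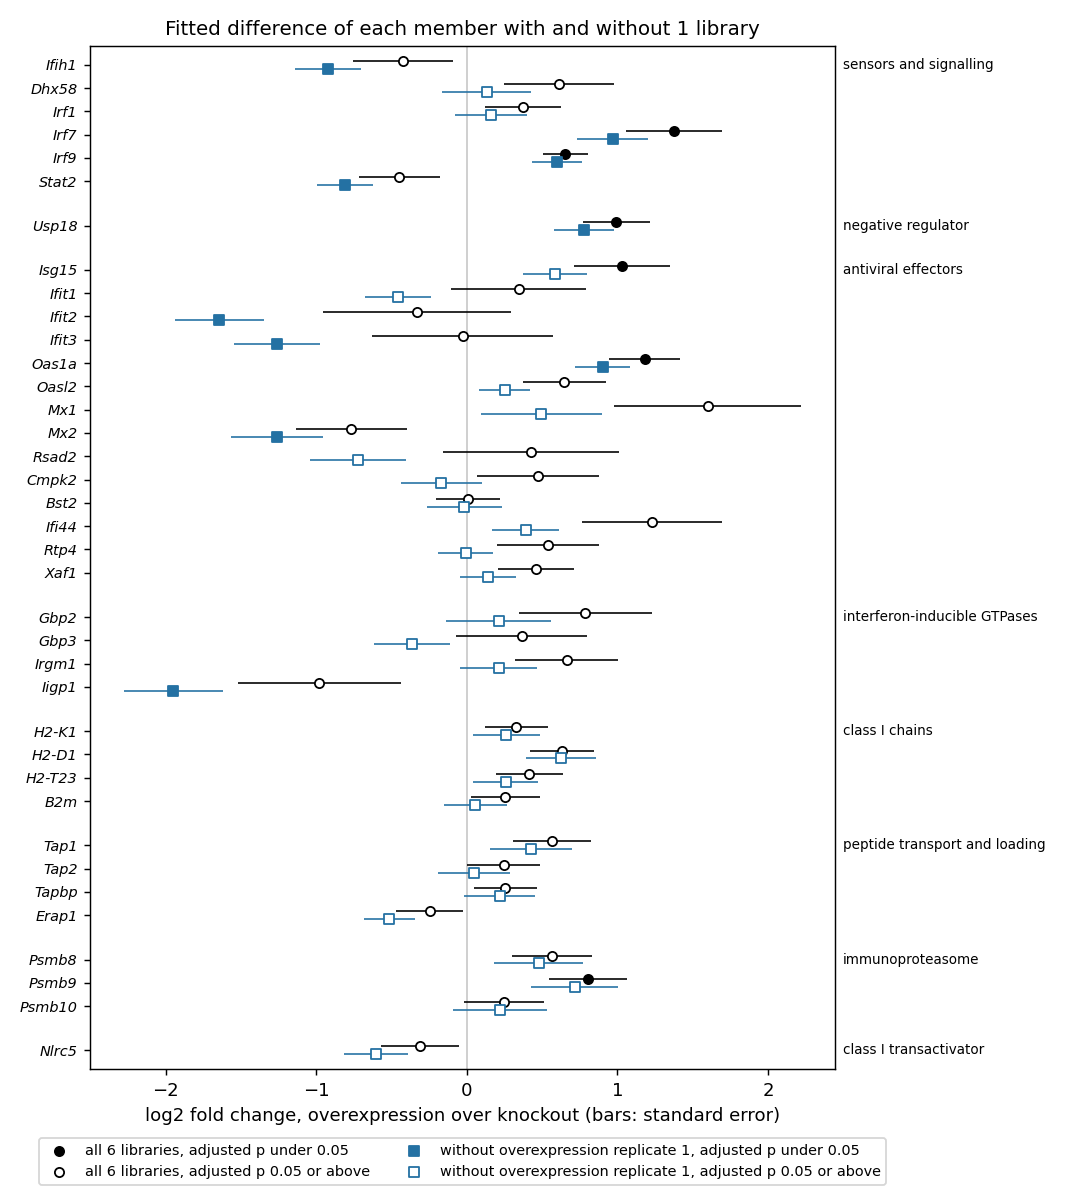
Log2 fold change of overexpression over knockout (x axis, bars are standard errors) for each member (y axis), with all 6 libraries as black circles and without overexpression replicate 1 as blue squares, filled where the adjusted p is under 0.05. Irf7, Irf9, Usp18 and Oas1a are filled in both fits, and 6 members that are lower are filled only without that library.

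Interferon genes themselves were near the limit of detection. Of 21 ligand genes listed, 1 was tested: Ifnz, a type I interferon also called limitin, had 7, 12 and 12 counts in the knockout libraries and 31, 28 and 26 counts in the overexpression libraries. It rose with a log2 fold change of 1.44 (edgeR, adjusted p = 0.0359), a call lost in each of the 6 fits that left out 1 library (0.0612 to 0.114). It was also lost with no filter (0.0848), with DESeq2 (0.0579) and under the epithelial scaling (0.6995, log2 fold change 0.27). Ifnb1, the first type I interferon made on sensing, had 7 counts in overexpression replicate 1 and 0 in the 5 other libraries. Ifng, the interferon of T and NK cells, had 13, 9 and 59 counts with knockout and 0, 1 and 0 counts with overexpression. It did not pass the filter on low counts with all 6 libraries, and was lower past the threshold without overexpression replicate 1 (edgeR, adjusted p = 0.0214, and 5.09e-05 to 0.0315 over the alternatives that kept it). In that fit Ifng passed the filter only through knockout libraries, where it was high. The filter thus left room for a lower call only, and the call is no evidence beyond the counts. The knockout library with most Ifng was the one with most T and NK cell markers, and the part of such cells was not tested. Ifne had at most 5 counts in any library.

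The receptor genes moved in different directions. Ifnar2, a subunit of the type I receptor, was at 42.3, 57.6 and 49.2 CPM in the knockout libraries and at 22.6, 25.03 and 21.5 CPM with overexpression. It fell from 49.7 ± 7.66 to 23.04 ± 1.79 CPM (SD, n = 3 each), and its fitted log2 change was -1.11 ± 0.16 (SE, edgeR, adjusted p = 0.00113). Ifnar1, the other subunit, fell from 74.1 ± 2.42 to 53.9 ± 1.41 CPM (SD, n = 3 each; log2 fold change -0.46, edgeR, adjusted p = 0.0242). The call for Ifnar1 was lost in 5 of the 6 fits that left out a library, all but the fit without overexpression replicate 2 (0.0717 to 0.0989), and with no filter (0.0893).

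Ifngr1, the ligand-binding subunit of the interferon gamma receptor, was at 46.1, 62.8 and 103 CPM against 27.4, 24.8 and 27.9 CPM, with a log2 fold change of -1.40 ± 0.27 (SE, edgeR, adjusted p = 0.00452). Ifngr2, its partner, was at 36.8, 38.8 and 36.4 CPM against 48.2, 37.6 and 24.9 CPM and did not pass (edgeR, adjusted p = 0.959). Ifnlr1, the specific subunit of the type III receptor found on epithelia, was at 13.3, 7.43 and 9.42 CPM against 26.8, 18.8 and 19.2 CPM. It rose with a log2 fold change of 1.10 ± 0.26 (SE, edgeR, adjusted p = 0.0113), which was -0.052 under the epithelial scaling. Il10rb, its shared partner, had a log2 fold change of 0.00 (edgeR, adjusted p = 0.987). None of the called receptor genes had overlapping groups, and overexpression replicate 1 lay beside the other overexpression libraries for Ifnar1, Ifnar2 and Ifngr1.

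**Figure D4:**
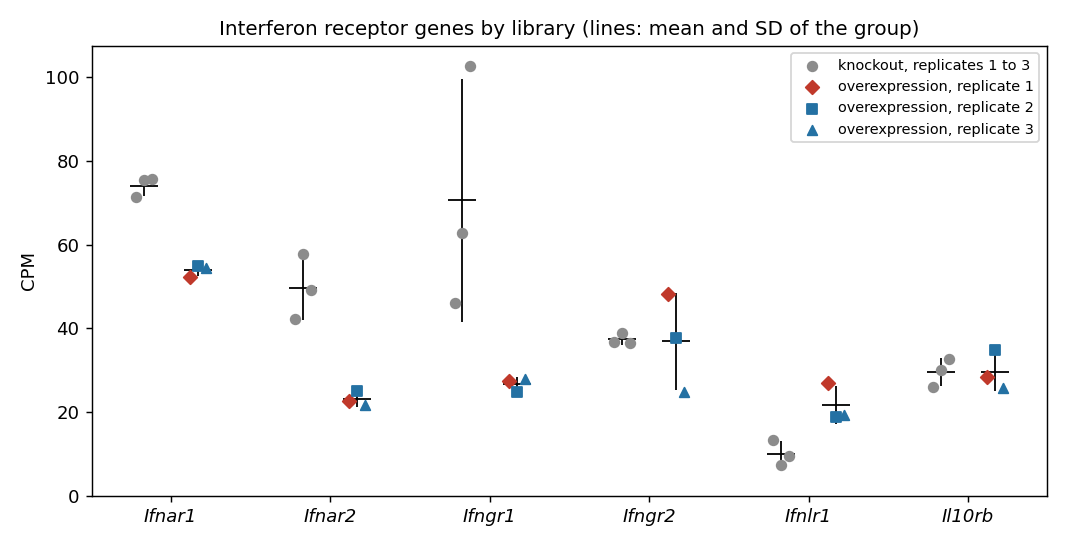
CPM (y axis, from 0) of 6 interferon receptor genes (x axis) in each library, knockout as grey circles and overexpression replicates 1, 2 and 3 as a red diamond, blue square and blue triangle, with lines for the mean and SD of each group. Ifnar1, Ifnar2 and Ifngr1 are lower in all 3 overexpression libraries than in every knockout library, and Ifnlr1 is higher.

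Among 10 signal transducers, 0 rose and 3 fell (30.0% called, beside 31.6% of all tested genes). Irf5, an interferon regulatory factor best known in myeloid cells, was at 1.84, 1.95 and 8.68 CPM against 0.152, 0.203 and 0.278 CPM, a log2 fold change of -4.27 (edgeR, adjusted p = 0.00240). Leaving out knockout replicate 3 took the knockout mean from 4.16 to 1.90 CPM, and the log2 fold change was then -3.12. Irf5 passed the filter on low counts through the knockout libraries, and its low overexpression levels leave the size of the change uncertain. Jak1, the kinase shared by the receptors, fell from 206 ± 48.8 to 138 ± 4.92 CPM (SD, n = 3 each; adjusted p = 0.0453, edgeR). The call for Jak1 was lost in 5 of the 6 fits without 1 library, all but that without knockout replicate 1 (0.0971 to 0.176). Ikbke, a kinase that activates interferon regulatory factors, fell with a log2 fold change of -0.59 (edgeR, adjusted p = 0.0312). Dropping replicate 2 or 3 of either group ended the call (0.0592 to 0.121). Of 8 tested sensors and adaptors 0 passed, with 1 at an unadjusted p under 0.05. Of 6 negative regulators 1 fell, Socs3, a cytokine-induced inhibitor of Jak kinases, from 614 ± 216 to 323 ± 57.4 CPM (SD, n = 3 each; edgeR, adjusted p = 0.0266). The call for Socs3 was lost without knockout replicate 2 and without overexpression replicate 1, 2 or 3 (0.0517 to 0.0925).

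Of 48 further interferon-stimulated genes tested, 8 rose and 4 fell, with a median log2 fold change of 0.13. Slfn5, a Schlafen family gene, fell from 169 ± 89.3 to 1.05 ± 0.144 CPM (SD, n = 3 each), and its fitted log2 change was -7.33 ± 0.51 (SE, edgeR, adjusted p = 1.33e-05). Oas3, the largest oligoadenylate synthase, was at 7.35, 7.03 and 6.38 CPM against 72.4, 34.8 and 28.2 CPM. The log2 fold change was 2.71 ± 0.35 (SE, edgeR, adjusted p = 0.000483), and it was 1.58 under the epithelial scaling and 2.21 without overexpression replicate 1. Epsti1, named for epithelial and stromal interaction, fell with a log2 fold change of -3.76 (edgeR, adjusted p = 0.00190), or -2.94 without knockout replicate 3, where the knockout mean went from 8.003 to 4.55 CPM. In overexpression replicate 1, 46 of these 48 genes lay above the mean of replicates 2 and 3, beside 8345 of all 18504 tested genes. The median difference of the 48 genes was 0.95 on the log2 scale.

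Of 18 genes known for induction by interferon gamma, 1 rose and 1 fell (11.1% called, beside 31.6% of all tested genes). Cxcl9, a chemokine that draws T cells, was at 151, 218 and 77.0 CPM against 41.9, 17.2 and 11.8 CPM, with a log2 fold change of -2.65 ± 0.52 (SE, edgeR, adjusted p = 0.00479). Its overexpression libraries lay below every knockout library, with replicate 1 the highest of them, and without that replicate the log2 fold change was -3.34. Tgtp1, a GTPase with a close copy in Tgtp2, was at 119, 118 and 75.7 CPM against 519, 162 and 151 CPM, a log2 fold change of 1.42 (edgeR, adjusted p = 0.0454). The call for Tgtp1 ended when any knockout library or overexpression replicate 1 was dropped (0.0731 to 0.117), and its log2 fold change without the last was 0.61. It also ended under upper-quartile scaling (0.0579), robust dispersion (0.0506) and epithelial scaling (0.412, log2 fold change 0.35). All 18 genes were above the mean of replicates 2 and 3 in overexpression replicate 1, beside 8345 of all 18504 tested genes. The median difference of the 18 genes was 1.75 on the log2 scale. Without overexpression replicate 1, 0 of these genes rose and 8 fell (44.4% lower, beside 15.5% of the genes then tested). That fit was singled out because interferon-stimulated members were high in the library left out, so these 8 calls are not independent evidence.

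Of 11 further class I chains tested, 0 rose and 5 fell (45.5% lower, beside 18.0% of all tested genes). Mr1, which presents vitamin metabolites, fell from 10.7 ± 1.11 to 1.76 ± 0.941 CPM (SD, n = 3 each; log2 fold change -2.60, edgeR, adjusted p = 0.00104). H2-Q7, a nonclassical chain whose reads may be shared with H2-Q6, fell from 166 ± 26.3 to 58.8 ± 18.1 CPM (SD, n = 3 each; log2 fold change -1.50, edgeR, adjusted p = 0.00171). Cd1d1, which presents lipids, fell from 5.94 ± 1.14 to 1.89 ± 0.319 CPM (SD, n = 3 each; log2 fold change -1.65, edgeR, adjusted p = 0.00288). Of 7 further loading and trimming genes 0 passed, with 2 at an unadjusted p under 0.05. Across the 118 pathway genes tested beside the members, 14 rose and 17 fell with all libraries (26.3% called, beside 31.6% of all tested genes). Without overexpression replicate 1, 10 rose and 32 fell of 122 tested (34.4% called, beside 28.5% of the genes then tested). These calls too are not independent of the choice of the library left out.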

How the data were processed

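RNA-seq of 6 PDVC57 libraries was analysed from 1 table of raw counts per gene deposited by the authors. The submitters' processing notes name kallisto 0.44.0 and mm10. Their roles, the annotation, strand setting and rounding are not given in the sources used here. Columns were matched to samples by their descriptions. The 96 rows that name no mouse gene (at most 2.23e-05% of counts) were left out, and symbols and positions came from GENCODE M21 (GRCm38). After filterByExpr (minimum count 10, minimum total 15), 18504 genes were normalized with TMM and tested with edgeR 4.0.16 in R 4.3.3 (quasi-likelihood, group only). On simulated data with 3 libraries per group, this test recovered 23 of 89 changes of 2-fold and 90 of 111 changes of 4-fold. Of its 123 calls there, 10 were false. The simulation changed only these 89 and 111 of 18504 genes and left genes with low counts unchanged. In the data 31.6% of genes were called, so the adjusted threshold differs and these rates need not hold there. The standard error is the size of the log2 fold change over the square root of F. Precision is limited by 3 libraries per group; the limit of 3 counts covers counting error only.

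Alternatives were RLE, upper-quartile and epithelial scaling, no filter, robust dispersion, DESeq2 1.42.0, a replicate block and leaving out each library. All 37 members are named; values in every library are given for those called and for the highest of each role. Of other pathway genes, the 3 with the smallest p per role, the detected ligands, receptors and constitutive proteasome subunits are named; 1 gene of this rule is not reported here. Some members outside these were chosen for values per library after they were seen. Members and lists were chosen with earlier results of these data known.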

Additional observations from a re-analysis of the deposited data

Results flagged for a closer look

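Among the rows that name no mouse gene, the mCherry reporter sequence had 8 counts in knockout replicate 3 and 1 count in knockout replicate 2. It had 0 counts in the other 4 libraries. No comparison used this row, and it was listed here because 8 counts lie above the 3 counts that a count of 0 allows.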

How the results depend on the processing

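Of the interferon-stimulated members, 5 were higher and 0 lower with all libraries. The count of higher ones was 0 under the epithelial scaling and 10 with no filter, and 4 to 7 when 1 library was left out. The count of lower ones was 8 under the epithelial scaling, 1 with no filter, and 0 to 6 when 1 library was left out. For the class I members, 1 was higher and 0 lower. The count of higher ones was 0 with upper-quartile and with epithelial scaling, 2 with DESeq2 and 4 with the replicate block, and 0 to 3 when 1 library was left out; 8 were lower under the epithelial scaling. 

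Of the other pathway genes, 2 were higher and 83 lower under the epithelial scaling, and 9 to 19 were higher and 12 to 32 lower when 1 library was left out. Of all genes, 336 were higher (2.53% of calls, against 43.1%) and 12964 lower (97.5%, against 56.9%) under the epithelial scaling, and 1446 to 2599 were higher when 1 library was left out. Same-numbered libraries did not deviate together (correlations of 0.0508, 0.0223 and -0.0399), and not every library correlated best with its own number, so the numbers are not taken as pairs; with the replicate block, 2416 genes were higher and 3177 lower, and 5 interferon-stimulated members were higher and 0 lower.

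Under the epithelial scaling the log2 fold change turned to -0.57 for Dhx58, -0.74 for Irf1, -0.52 for Irf9, -0.17 for Usp18, -0.15 for Isg15, -0.83 for Ifit1, -0.50 for Oasl2, -0.72 for Rsad2, -0.71 for Cmpk2, -1.19 for Bst2, -0.60 for Rtp4, -0.68 for Xaf1, -0.25 for Gbp2, -0.70 for Gbp3 and -0.42 for Irgm1. It turned to -0.83 for H2-K1, -0.53 for H2-D1, -0.72 for H2-T23, -0.88 for B2m, -0.53 for Tap1, -0.87 for Tap2, -0.89 for Tapbp, -0.54 for Psmb8, -0.31 for Psmb9 and -0.89 for Psmb10. Of the named other genes it turned to -0.052 for Ifnlr1, -0.29 for Psmb5, -0.35 for Psmb6, -0.51 for Psmb7 and -1.21 for Il10rb. With no filter, Ifit3 was 0.014 and Ifngr2 0.0055. With upper-quartile scaling Bst2 was -0.057 and Il10rb -0.059, and with the replicate block -0.019 and -9.58e-05.

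When 1 library was left out, the log2 fold change changed sign for Ifit1 (-0.46 to 0.66), Ifit2 (-1.64 to 0.13), Ifit3 (-1.26 to 0.40), Rsad2 (-0.72 to 0.84), Cmpk2 (-0.17 to 0.75), Bst2 (-0.14 to 0.22), Rtp4 (-0.0068 to 0.81), Gbp3 (-0.36 to 0.68), Ifngr2 (-0.24 to 0.22) and Il10rb (-0.11 to 0.12). The cause was not tested. With RLE and with robust dispersion all 37 members kept their direction and their side of the threshold. With 3 libraries per group, a p above the threshold does not show that a member did not differ.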
